A study of Arabidopsis thaliana with 6 samples.

Results

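The OCTOPUS overexpressor was compared with the octopus mutant of *Arabidopsis thaliana*, a gain against a loss of function of the same gene. The comparison holds 4 of the 6 arrays of the study, chosen by their titles: 2 of the overexpressor, which the labels call 35SDYG25, and 2 of the mutant, which they call DYG25. The other 2 arrays, titled WS, are the wild type. They enter the estimate of spread behind the p-values and the choice of tested probe sets. Otherwise their values are given only as a level beside the others. Whole plants were grown untreated on MS/2 medium, with 70% hygrometry and 20 °C, and their total RNA was amplified, labelled and read on Affymetrix ATH1 arrays. The labels give no plant age, no accession for the overexpressor, no nature of the mutation and no promoter beyond the prefix 35S in the line's name. They do not say whether each line is a single insertion event, whether plants were pooled or whether replicates were separate cultures, so the p-values describe the spread between these samples alone, and it may be technical.

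OCTOPUS (OPS, AT3G09070) encodes a membrane-associated protein that sits at one pole of the young cells of the phloem file. Phloem is the tissue that carries sugars and signals through the plant, and plants without OPS form gaps in the protophloem, where some cells fail to become sieve elements. OPS is also known to bind BIN2, a kinase that holds back brassinosteroid signalling, and so has been placed on the side that favours this growth hormone. In whole plants the phloem is a small part of the RNA, and fewer cells of a type and less RNA per cell cannot be told apart.

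Values are log2 expression values, 1 per probe set (a set of short probes for a transcript) and array, and a difference of 1 is a 2-fold change. Array medians lay between 4.40 and 4.46 in the 4 arrays compared, and values near the 25th percentile of an array, 2.54 to 2.70, lie at the floor of the array, where background caps the size of a fold. Over the tested probe sets the arrays correlated at 0.984 in the overexpressor and 0.989 in the mutant, and at 0.939 to 0.956 between the lines. The highest value was 14.2937 and 14.2061 in the overexpressor arrays, against 14.2679 in both mutant arrays. The sources used here do not say whether the overexpressor arrays were normalised apart from the rest, so a difference of processing cannot be told apart from a difference between the lines in any result that follows. The GAPDH control was brighter at its 3′ end than at its 5′ end, by 1.92 and 1.72 in the overexpressor against 1.8 and 1.39 in the mutant. The 25S ribosomal control read 6.28 and 6.61 in the overexpressor against 8.03 and 11.2 in the mutant. The part of either in the results was not tested.

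The 2 lines differed widely. Of 12363 tested probe sets, 2269 passed limma's test at an adjusted p below 0.05, which is 18.4%, with 1088 higher (8.80%) and 1181 lower (9.55%) in the overexpressor. At least 2-fold changes numbered 642 (5.19%), and among them the balance leaned the other way, with 378 higher (3.06%) and 264 lower (2.14%). Large changes were mostly rises: 71 probe sets rose at least 4-fold and 29 at least 8-fold, while 26 fell at least 4-fold and 4 fell at least 8-fold. The median change was 0.82 among the rises and -0.73 among the falls, and -0.03 over all tested probe sets. The arrays of the lines did not overlap for 62.1% of the tested probe sets, so that a lack of overlap alone says little. Probe sets that name 1 gene passed at 17.7%, and those of genes with a symbol at 16.6% (8.25% higher and 8.35% lower). With no filter on low values 6.73% of all probe sets passed, and 2.02% of those that the filter had left out.

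**Figure D1:**
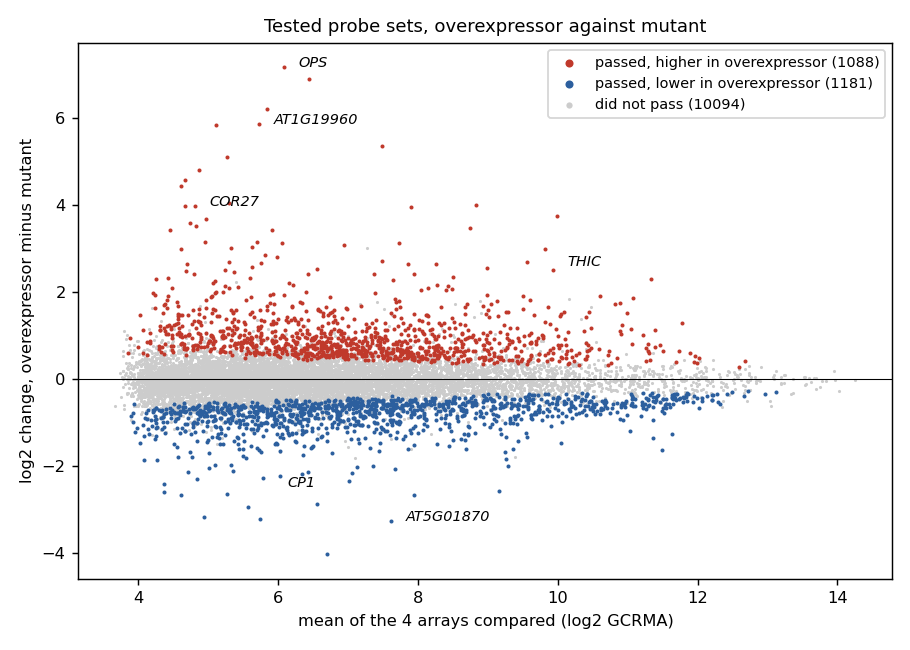
Change of each tested probe set (log2, overexpressor minus mutant) against its mean over the 4 arrays compared (log2 GCRMA value). Red points passed and are higher in the overexpressor (1088), blue points passed and are lower (1181), and grey points did not pass; the rises reach 7.17 and the falls -4.04.

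OPS itself was read at 9.52 and 9.83 in the overexpressor, against 2.53 and 2.47 in the mutant and 2.66 and 2.47 in wild type. Only the overexpressor arrays stand above the floor, so the probe set bears out the label of that line and cannot speak to the mutation, since wild type is at the floor too. The change was 7.17 log2 units (95% interval 6.77 to 7.58, SE 0.171, limma adjusted p = 7.3e-06), a fold of 145 that the floor limits.

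The cold-regulated genes COR27, COR47 and LTI30 were higher in the overexpressor, as was AT4G33980. Thus 4 of the 5 tested genes of the cold and abscisic acid list rose, against 8.80% of all tested probe sets. That list was drawn up with earlier results of these data known. COR27 (AT5G42900), a gene induced by cold and tied to the clock, had 6.75 and 6.85 in the overexpressor, against 2.88 and 2.78 in the mutant and 6.96 and 6.62 in wild type. Both mutant arrays are near the floor, and the overexpressor arrays lie within the range of wild type. Its change was 3.97 (SE 0.165, limma adjusted p = 7.79e-05), or 15.7-fold. AT4G33980 had 6.92 and 6.93 in the overexpressor, against 4.73 and 3.95 in the mutant and 7.05 and 7.50 in wild type, a change of 2.58 (SE 0.271, limma adjusted p = 0.00233). CCL (AT3G26740), a clock-controlled gene of no fixed list, had 12.01 and 12.02 in the overexpressor, against 10.35 and 9.95 in the mutant and 12.21 and 11.99 in wild type, and rose by 1.86 (SE 0.144, limma adjusted p = 0.000766). In these 3 genes the mutant arrays stand alone at the low end. The dehydrin gene COR47 had 10.92 and 10.72 in the overexpressor, against 9.85 and 10.24 in the mutant and 11.37 and 11.23 in wild type. It rose by 0.77 over the mutant (limma adjusted p = 0.0152). The dehydrin gene LTI30 had 7.75 and 7.36, against 6.84 and 6.96 in the mutant and 7.92 and 8.15 in wild type. Its rise over the mutant was 0.65 (limma adjusted p = 0.0359). COR15B, with 3.89 and 4.19 against 3.68 and 4.51 in the mutant and 5.77 and 4.94 in wild type, differed by -0.06 (adjusted p = 0.934). In COR47, LTI30 and COR15B the overexpressor thus lies below wild type. The clock gene GI differed by 0.43 (adjusted p = 0.12). COR47 lost its call without overexpressor array 1 (limma adjusted p = 0.0573) or mutant array 1 (0.0848). LTI30 lost its call without overexpressor array 1 (0.106), either mutant array (0.175 and 0.136) or either wild-type array (0.0512 and 0.0515), in a fit of the 4 arrays alone (0.0523) and without a filter (0.0746). The labels do not give the hour of sampling.

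THIC, 2 starch enzymes, CHL and STR18 were higher in the overexpressor, with the mutant as the low group. THIC (AT2G29630), the enzyme that makes the pyrimidine part of thiamine, had 11.19 in both overexpressor arrays, against 8.72 and 8.65 in the mutant and 11.52 and 10.84 in wild type. It rose by 2.51 (SE 0.201, limma adjusted p = 0.000909), or 5.68-fold, at levels far above the floor. Of 3 tested genes of starch metabolism 2 rose, against 8.80% of all tested probe sets. DPE1 (AT5G64860), which rearranges the short glucans left by starch breakdown, had 7.30 and 7.47 in the overexpressor, against 5.67 and 5.97 in the mutant and 7.76 and 7.35 in wild type. PWD (AT5G26570), a dikinase that phosphorylates starch before it is broken down, had 8.91 and 8.81, against 7.48 and 7.37 in the mutant and 9.45 and 8.86 in wild type. Both breakdown enzymes stood apart from the mutant, by 1.56 for DPE1 (SE 0.183, limma adjusted p = 0.00319) and by 1.43 for PWD (SE 0.189, limma adjusted p = 0.00475). The branching enzyme gene SBE2.2, of starch synthesis, differed by -0.27 (adjusted p = 0.188). CHL (AT3G47860), a lipocalin of the chloroplast, had 9.95 and 9.77 in the overexpressor against 8.32 and 8.52 in the mutant and rose by 1.44 (SE 0.123, limma adjusted p = 0.00116). STR18 (AT5G66170), a sulfurtransferase, had 7.41 and 7.49 against 6.36 and 5.62 and rose by 1.46 (SE 0.275, limma adjusted p = 0.0149). PWD lost its call without mutant array 2 (limma adjusted p = 0.0581), as did STR18 (0.0876), which also lost it without overexpressor array 2 (0.0717). Another probe set carries the symbol PWD but was matched by symbol alone, so it may be of another gene. It lay near the floor and the other way, with 2.82 and 2.54 in the overexpressor against 3.56 and 3.93 in the mutant.

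OSM34, AT4G33720, WRKY53 and RING1 rose in the overexpressor to levels that neither the mutant nor wild type reached. OSM34 (AT4G11650), an osmotin of the thaumatin-like family of pathogenesis-related proteins, had 8.93 and 8.75 in the overexpressor, against 6.09 and 6.17 in the mutant and 6.12 and 6.77 in wild type. Its rise was 2.71 (SE 0.213, limma adjusted p = 0.000833), or 6.54-fold. AT4G33720, of the salicylic acid defence list, had 10.90 and 10.74, against 7.13 and 6.53 in the mutant and 5.75 and 5.73 in wild type, so that its 3 groups are apart and the overexpressor is the highest. WRKY53 (AT4G23810), a transcription factor of senescence and defence, had 6.02 and 6.19, against 4.34 and 3.89 in the mutant and 4.54 and 4.38 in wild type, and rose by 1.99 (SE 0.195, limma adjusted p = 0.0019). RING1 (AT5G10380), a RING-type ubiquitin ligase linked to cell death in defence, had 5.93 and 6.41, against 3.72 and 4.21 in the mutant and 4.28 and 3.63 in wild type, and rose by 2.20 (SE 0.290, limma adjusted p = 0.0047). For both, the overexpressor arrays lie above the other 4 arrays. Of the 14 genes of the salicylic acid defence list 3 were tested, and AT4G33720 and WRKY53 rose, against 8.80% of all tested probe sets. The list was drawn up with earlier results of these data known, with AT4G33720 entered by its locus number. The count is therefore not independent of these data. SAG101, with 5.46 and 5.05 in the overexpressor against 4.91 and 4.80 in the mutant, differed by 0.40 (adjusted p = 0.166). Of 5 tested probe sets of WRKY factors 2 rose, WRKY53 and WRKY47, against 8.80% of all tested probe sets. WRKY47 rose by 1.07 (SE 0.167, limma adjusted p = 0.00838) with 5.13 and 5.10 in the overexpressor against 4.04 and 4.05 in the mutant. Of 4 tested genes that the class III peroxidase list caught by name 1 rose, against the same 8.80%. That gene was AT5G64120, annotated as peroxidase 71, which rose by 1.31 (limma adjusted p = 0.00854). The list can miss members with a locus number only, so the count does not cover the family. Not all defence-type transcripts moved this way: THI2.2 (AT5G36910), a thionin, had 5.91 and 5.55 in the overexpressor against 7.21 and 7.34 in the mutant and fell by 1.54 (SE 0.249, limma adjusted p = 0.00909), and PR-1-LIKE (AT2G19990) fell by 0.94 (limma adjusted p = 0.0401). Without mutant array 1 and without mutant array 2 the adjusted p was 0.0617 and 0.0673 for WRKY47, 0.0718 and 0.0623 for AT5G64120, 0.0651 and 0.0821 for THI2.2 and 0.1 and 0.213 for PR-1-LIKE. THI2.2 also lost its call without overexpressor array 2 (0.0511), and PR-1-LIKE without overexpressor array 2 (0.127) or either wild-type array (0.069 and 0.0686), in a fit of the 4 arrays alone (0.0694) and without a filter (0.108).

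**Figure D2:**
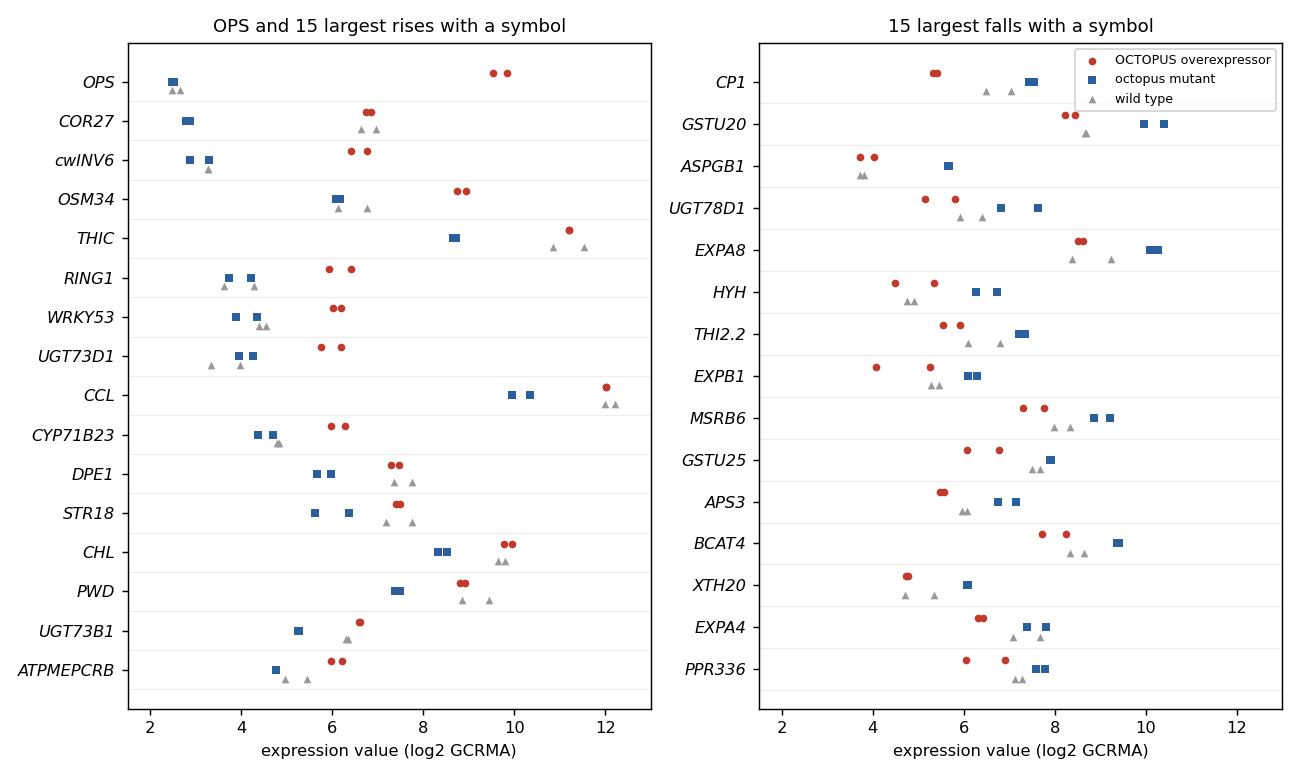
Expression values (log2 GCRMA, horizontal axis) of OPS and of the 15 largest rises (left) and 15 largest falls (right) among genes with a symbol; each point is 1 array, red for the overexpressor, blue for the mutant and grey for wild type. In each row the red and blue points do not overlap, and for COR27, THIC and CCL the grey points lie by the red ones, with the mutant alone at the low end.

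EXPA8, EXPA4, EXPA9, EXPB1 and EXPB3, genes of expansins, which loosen the cell wall, fell in the overexpressor, and EXLA1 rose. Of 11 tested expansin probe sets 5 fell, 1 rose and 5 did not pass, so that 54.5% passed against 18.4% of all tested probe sets, and the median change was -0.75 against -0.03. EXPA8 (AT2G40610), an alpha-expansin, had 8.62 and 8.50 in the overexpressor, against 10.09 and 10.26 in the mutant and 8.37 and 9.23 in wild type, and fell by 1.61 (SE 0.254, limma adjusted p = 0.00854). EXPA4 (AT2G39700) had 6.42 and 6.32, against 7.39 and 7.80 in the mutant and 7.68 and 7.08 in wild type, and fell by 1.22 (SE 0.226, limma adjusted p = 0.014). Wild type thus lies near the overexpressor for EXPA8 and near the mutant for EXPA4. EXPA9 (AT5G02260) had 5.49 and 5.66, against 6.79 and 6.57 in the mutant, and fell by 1.10 (SE 0.143, limma adjusted p = 0.00442). The beta-expansin EXPB1 (AT2G20750) had 5.26 and 4.08, against 6.08 and 6.28, and fell by 1.51 (SE 0.350, limma adjusted p = 0.0288). Its 2 overexpressor arrays lie far apart. EXPB3, named after its values were seen to complete the count, fell by 0.75 (limma adjusted p = 0.0337), and EXPA15 differed by -0.75 without passing (adjusted p = 0.0935). The member that rose was EXLA1 (AT3G45970), an expansin-like gene, with 7.47 and 7.36 in the overexpressor against 6.35 and 6.27 in the mutant, by 1.10 (SE 0.116, limma adjusted p = 0.00233). EXPA9 and EXLA1 passed with each of the 6 arrays left out in turn. Without mutant array 1 and without mutant array 2 the adjusted p was 0.0613 and 0.0814 for EXPA8, 0.0527 and 0.106 for EXPA4, and 0.119 and 0.16 for EXPB1. EXPA4 also lost its call without overexpressor array 2 (0.0677), and EXPB1 without either wild-type array (0.0506 and 0.0504), in a fit of the 4 arrays alone (0.0503) and without a filter (0.0799).

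Xyloglucan endotransglucosylases, which cut and rejoin the xyloglucan between cellulose fibres, gave 1 fall among 7 tested probe sets, with a median of -0.19. Among all tested probe sets 9.55% fell, 18.4% passed in either direction and the median was -0.03. XTH20 (AT5G48070) had 4.77 and 4.72 in the overexpressor, against 6.07 and 6.09 in the mutant and 5.35 and 4.71 in wild type, and fell by 1.33 (SE 0.218, limma adjusted p = 0.00954). XTH19 differed by -0.61 (adjusted p = 0.0539), XTH33 by -0.63 (adjusted p = 0.0871) and EXGT-A3 by 0.17 (adjusted p = 0.349). Pectin methylesterases went the other way, and both tested genes rose, against 8.80% of all tested probe sets. ATPMEPCRB (AT4G02330) had 6.21 and 5.96 in the overexpressor against 4.77 and 4.76 in the mutant and rose by 1.32 (SE 0.197, limma adjusted p = 0.00726), and PMEPCRF rose by 0.72 (limma adjusted p = 0.0397). Without mutant array 1 and without mutant array 2 the adjusted p was 0.0708 and 0.0804 for XTH20, 0.0589 and 0.067 for ATPMEPCRB, and 0.201 and 0.115 for PMEPCRF. PMEPCRF also lost its call without overexpressor array 1 (0.11) or either wild-type array (0.0656 and 0.0651), in a fit of the 4 arrays alone (0.0643) and without a filter (0.0856).

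EXPA8 and EXPA4 were also the 2 that fell among 4 tested genes of the brassinosteroid list, against 9.55% of all tested probe sets. Both are already counted among the expansins and were entered by name in a list drawn up with earlier results of these data known. The count is therefore not independent of these data. The list holds 22 genes of synthesis, signalling and response of the hormone. Only the 4 tested had a named probe set, and BIN2 was not among them. The other tested members were HAT2, which differed by -0.54 (adjusted p = 0.258), and XTH18, which differed by 0.02 (adjusted p = 0.934). GH3.3 (AT2G23170), which joins auxin to amino acids, was the 1 of 3 tested auxin-responsive genes that changed, against 18.4% of all tested probe sets. It had 5.24 and 5.53 in the overexpressor, against 6.44 and 6.49 in the mutant and 5.12 and 5.29 in wild type, and fell by 1.08 (SE 0.158, limma adjusted p = 0.00684). The mutant arrays are the high group, and the call was lost without mutant array 1 (limma adjusted p = 0.0548) or mutant array 2 (0.067).

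BCAT4 and AT2G31790, 2 of 4 tested genes of the glucosinolate list, fell in the overexpressor, against 9.55% of all tested probe sets. Both were entered by name in a list drawn up with earlier results of these data known, so the count is not independent of these data. APS3 and MSRB6, of no fixed list, fell as well, while APS4 and the sulfurtransferase gene STR18 rose. APS3 (AT4G14680), an ATP sulfurylase that activates sulfate, had 5.57 and 5.47 in the overexpressor, against 7.14 and 6.76 in the mutant and 6.07 and 5.96 in wild type, and fell by 1.43 (SE 0.165, limma adjusted p = 0.00302). APS4, another ATP sulfurylase that was picked after its values were seen, had 9.24 and 9.18 against 8.16 and 8.32 and rose by 0.97 (SE 0.112, limma adjusted p = 0.00307). The 2 sulfurylases therefore moved in opposite directions. BCAT4 (AT3G19710), which starts the chain elongation of methionine for glucosinolates, the sulfur-rich defence compounds of this family, had 8.25 and 7.71 in the overexpressor, against 9.36 and 9.40 in the mutant and 8.63 and 8.33 in wild type. It fell by 1.40 (SE 0.191, limma adjusted p = 0.00533). AT2G31790 fell by 0.57 (limma adjusted p = 0.039). MSRB6 (AT4G04840), a methionine sulfoxide reductase, had 7.77 and 7.29 in the overexpressor against 8.85 and 9.20 in the mutant and fell by 1.49 (SE 0.208, limma adjusted p = 0.00572). Leaving out mutant array 2 gave an adjusted p of 0.061 for BCAT4, 0.0633 for MSRB6 and 0.21 for AT2G31790, and without mutant array 1 it was 0.0519 for BCAT4. AT2G31790 lost its call with any of the 6 arrays left out (lowest limma adjusted p = 0.0571), in a fit of the 4 arrays alone (0.0569), without a filter (0.0737) and without a mean-variance trend.

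Glutathione transferases, which join glutathione to reactive and foreign molecules, gave 2 falls and no rise among 10 tested probe sets, with a median of 0.20. That share, 20.0%, is near the 18.4% of all tested probe sets that passed in either direction, 9.55% of them as falls. GSTU20 (AT1G78370), of the tau class, had 8.23 and 8.44 in the overexpressor, against 9.95 and 10.40 in the mutant and 8.69 and 8.66 in wild type, and fell by 1.84 (SE 0.162, limma adjusted p = 0.00128), or 3.58-fold. GSTU25 (AT1G17180) had 6.77 and 6.07, against 7.91 and 7.90 in the mutant and 7.49 and 7.68 in wild type, and fell by 1.48 (SE 0.223, limma adjusted p = 0.00736). Both stood below the mutant in each array, while the median of the list lay above 0. GSTU16 differed by 0.40 (adjusted p = 0.0971) and GSTU22 by 0.31 (adjusted p = 0.114). GSTU25 lost its call without mutant array 1 (limma adjusted p = 0.0631) or mutant array 2 (0.0698), and GSTU20 passed with each array left out.

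UDP-glycosyltransferases, which attach sugars to hormones, flavonoids and other small molecules, moved in both directions. Of 27 tested probe sets 5 rose and 3 fell (29.6%, against 18.4% of all tested probe sets, 8.80% higher and 9.55% lower), with a median of 0.14. UGT73D1 (AT3G53150) had 6.2 and 5.76 in the overexpressor, against 4.26 and 3.94 in the mutant and 3.33 and 3.97 in wild type, and rose by 1.88 (SE 0.267, limma adjusted p = 0.00608). UGT73B1 (AT4G34138) had 6.60 and 6.58, against 5.27 and 5.24 in the mutant and 6.31 and 6.34 in wild type, and rose by 1.33 (SE 0.125, limma adjusted p = 0.00164). The overexpressor is the group apart for UGT73D1, and the mutant for UGT73B1. UGT80B1, which glycosylates sterols, rose by 0.63 (limma adjusted p = 0.0233). UGT76B1 and UGT76E11 were the other rises and UGT85A2 and UGT88A1 the other falls beside UGT78D1, named after their values were seen to complete the counts. UGT78D1 (AT1G30530), a flavonol rhamnosyltransferase, had 5.81 and 5.15 in the overexpressor, against 6.82 and 7.63 in the mutant and 6.39 and 5.91 in wild type, and fell by 1.74 (SE 0.331, limma adjusted p = 0.0152). The 1 tested gene of the flavonoid list, CHIL, a chalcone isomerase-like gene, also fell, by 0.64 (limma adjusted p = 0.0247). Leaving out mutant array 2 gave an adjusted p of 0.0658 for UGT73D1, 0.0992 for UGT78D1, 0.12 for UGT80B1 and 0.123 for CHIL. The last 2 also lost their calls without mutant array 1 (0.111 for UGT80B1 and 0.11 for CHIL) and without overexpressor array 2 (0.0884 and 0.0546), UGT78D1 without overexpressor array 2 (0.0742), and CHIL without overexpressor array 1 (0.0591) and without a filter (0.0717).

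The cytochrome P450 list, formed from the letters of symbols, held 11 tested probe sets, of which 2 rose, with a median of 0.24. That share, 18.2%, stands beside 8.80% of all tested probe sets that rose and 18.4% that passed in either direction. The list holds CYP71 and CYP59, which are cyclophilins and not P450 enzymes, at -0.21 and -0.23. CYP71B23 (AT3G26210) had 6.27 and 5.97 in the overexpressor, against 4.36 and 4.69 in the mutant and 4.79 and 4.82 in wild type, and rose by 1.59 (SE 0.182, limma adjusted p = 0.00294). CYP71B28 rose by 0.57 (limma adjusted p = 0.0293), a call lost without overexpressor array 1 (limma adjusted p = 0.0806), overexpressor array 2 (0.08), mutant array 1 (0.08) or mutant array 2 (0.166). CYP71B37 differed by 0.77 (adjusted p = 0.0779) and CYP71B6 by 0.52 (adjusted p = 0.052).

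Of the sugar transporter and invertase list 1 of 6 tested probe sets rose and 1 fell, with a median of 0.01. Over all tested probe sets 8.80% rose and 9.55% fell. The list was formed from the letters of symbols and so also holds SWEETIE, at -0.005. SWEET11 (AT3G48740), a sucrose exporter that loads the phloem, had 10.22 and 10.38 in the overexpressor, against 9.67 and 9.95 in the mutant and 10.54 and 10.64 in wild type, and rose by 0.49 (SE 0.123, limma adjusted p = 0.0358), or 1.40-fold. SWEET2, a sugar transporter of the vacuole, had 5.70 and 5.41 against 6.26 and 6.40 and fell by 0.77 (limma adjusted p = 0.0225). Neither change is large, and SWEET17 and SWEET1 differed by -0.23 and 0.06 (adjusted p = 0.345 and 0.842). SWEET11 lost its call with any of the 6 arrays left out (limma adjusted p = 0.0544 to 0.186), in a fit of the 4 arrays alone (0.0549), without a filter (0.0797) and without a mean-variance trend, and SWEET2 lost it without mutant array 1 (0.0928), mutant array 2 (0.136) or overexpressor array 2 (0.0884) and without a filter (0.0513). cwINV6 (AT5G11920), of the cell wall invertase family and annotated as a fructan exohydrolase, was not caught by that list. It had 6.76 and 6.41 in the overexpressor, against 2.87 and 3.28 in the mutant and 3.27 in both wild-type arrays, and rose by 3.51 (SE 0.206, limma adjusted p = 0.000308), or 11.4-fold from near the floor.

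ASPGB1 and 2 transporters of the nitrate and peptide family fell in the overexpressor. ASPGB1 (AT3G16150), an asparaginase that releases the nitrogen of asparagine, had 3.72 and 4.02 in the overexpressor, against 5.67 and 5.65 in the mutant and 3.72 and 3.80 in wild type, and fell by 1.79 (SE 0.167, limma adjusted p = 0.00161). The mutant is the group apart. Of 6 tested probe sets of nitrate, amino acid and peptide transporters 2 fell (33.3%, against 9.55% of all tested probe sets), with a median of -0.56. AT1G68570, annotated as family member NPF3.1, had 4.52 and 4.49 in the overexpressor, against 5.65 and 5.92 in the mutant and 5.13 and 4.97 in wild type, and fell by 1.28 (SE 0.161, limma adjusted p = 0.00402). AT3G21670, annotated as NPF6.4, had 6.53 and 6.17, against 7.26 and 8.22, and fell by 1.39 (SE 0.317, limma adjusted p = 0.0272). Wild type stood between the lines in AT1G68570. AT2G26690 differed by -0.59 (adjusted p = 0.0584) and AT1G59740 by -0.53 (adjusted p = 0.0663). AT3G21670 lost its call without overexpressor array 1 (limma adjusted p = 0.0545), overexpressor array 2 (0.124) or mutant array 2 (0.115) and without a filter (0.0726).

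Other genes with a symbol that fell include a protease, a light-signalling factor and an antenna protein. CP1 (AT4G36880), a cysteine proteinase, had 5.40 and 5.32 in the overexpressor, against 7.44 and 7.55 in the mutant and 6.48 and 7.03 in wild type, and with 2.13 (SE 0.192, limma adjusted p = 0.0014) was the largest fall among the tested genes with a symbol. Each group lies apart from the other 2, with the overexpressor lowest. HYH (AT3G17609), a partner of the light-signalling factor HY5, had 5.35 and 4.48, against 6.26 and 6.73 in the mutant and 4.90 and 4.75 in wild type, and fell by 1.58 (SE 0.299, limma adjusted p = 0.0151). LHCB4.2 (AT3G08940), a minor antenna protein of photosystem II, had 10.55 and 10.30, against 11.63 in both mutant arrays and 9.84 and 10.80 in wild type, and fell by 1.21 (SE 0.277, limma adjusted p = 0.0281). The mutant is the high group for both, and wild type lies at or around the overexpressor. The other 2 tested light-harvesting genes did not pass, LHCB4.3 with 6.72 and 7.02 in the overexpressor against 7.33 and 7.60 in the mutant (-0.59, adjusted p = 0.0931) and LHCB4.1 with a difference of -0.03 (adjusted p = 0.858). None of the 4 tested nuclear photosystem genes passed limma's test (1 at an unadjusted p below 0.05; range -0.25 to -0.14). PPR336 (AT1G61870), a mitochondrial pentatricopeptide repeat protein, fell by 1.21 (SE 0.261, limma adjusted p = 0.0232). Of 5 tested genes of the bHLH list 1 rose, against 8.80% of all tested probe sets. It was bHLH104, by 0.68 (limma adjusted p = 0.0269). Without mutant array 1 and without mutant array 2 the adjusted p was 0.0619 and 0.114 for HYH, 0.135 and 0.145 for LHCB4.2, 0.102 and 0.143 for PPR336 and 0.0689 and 0.159 for bHLH104. LHCB4.2 and bHLH104 also lost their calls without overexpressor array 1 (0.062 and 0.0889), overexpressor array 2 (0.125 and 0.0552) and a filter (0.078 and 0.0548), and PPR336 without a filter (0.0606).

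Among the largest changes, 12 of the 15 rises and 13 of the 15 falls belong to genes that the annotation gives only a locus number, much as 84.8% of the tested probe sets that name 1 gene do. The rises besides OPS ran from 6.54-fold to 57.9-fold, and 10 of the 15 had a mutant mean under 4, so that the mutant's background limits those folds. AT1G19960 had 8.79 and 8.53 in the overexpressor, against 2.87 and 2.74 in the mutant and 2.63 and 2.61 in wild type. AT2G41090 had 11.23 and 11.38, against 8.17 and 8.47 in the mutant and 7.33 and 6.98 in wild type, and AT1G26250 had 9.42 and 9.16, against 6.38 and 5.96 in the mutant and 5.45 and 5.77 in wild type. For these 3 genes the overexpressor is the high group. For 2 other rises the mutant is the low group instead. AT1G07050 had 7.27 and 7.02 in the overexpressor, against 4.29 and 3.92 in the mutant and 7.85 and 7.49 in wild type, a rise of 3.04 (SE 0.196, limma adjusted p = 0.00047). AT1G19530 had 7.21 and 6.41, against 3.22 and 3.04 in the mutant and 6.19 and 6.90 in wild type, a rise of 3.68 (SE 0.319, limma adjusted p = 0.0012). AT5G55450 had another pattern, with 6.70 and 6.63 in the overexpressor, 2.70 and 2.67 in the mutant and 4.68 and 3.70 in wild type, so that wild type lies between. The remaining rises, AT3G60420, AT3G28510, AT3G07600, AT5G41280 and AT1G13470, had 6.07 to 7.08 in the overexpressor against 2.37 to 3.85 in the mutant, and the second probe set of AT3G60420 stayed at 2.47 and 2.54 against 2.48 and 2.45. All 15 passed with each of the 6 arrays left out (highest limma adjusted p = 0.0267).

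**Figure D3:**
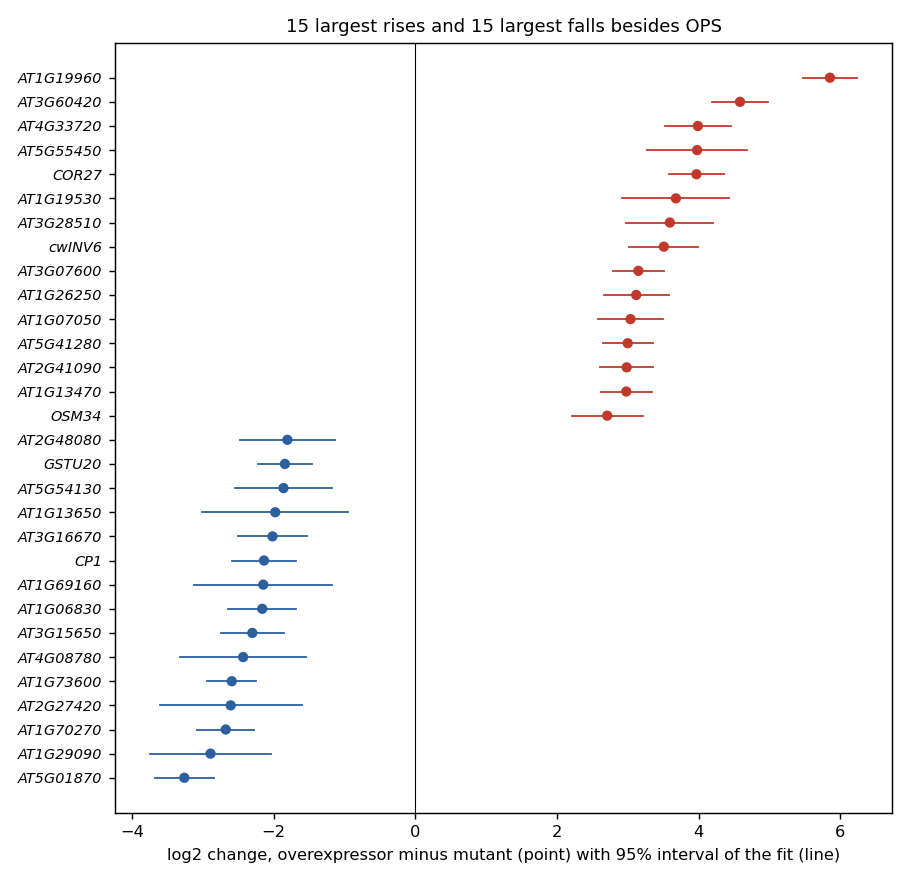
Change (log2, overexpressor minus mutant) of the 15 largest rises and 15 largest falls besides OPS; points are the fitted changes and lines their 95% intervals. The rises end at OSM34 with 2.71, and the intervals of the falls are often wider, with AT1G13650, AT1G69160 and AT2G27420 among them.

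Falls of genes with a locus number ran from 3.49-fold to 9.58-fold over the 15 largest, CP1 and GSTU20 included. AT5G01870 had 5.90 and 6.08 in the overexpressor, against 9.40 and 9.10 in the mutant and 7.29 and 6.91 in wild type, which lies between the lines. AT1G73600 had 8.03 and 7.69, against 10.37 and 10.53 in the mutant and 8.47 and 8.28 in wild type, and AT3G16670 had 8.18 and 8.37, against 10.24 and 10.34 in the mutant and 8.42 and 9.07 in wild type. AT1G06830 had 6.00 and 5.96, against 8.08 and 8.20 in the mutant and 6.14 and 6.75 in wild type. In these 3 genes the mutant is the high group, well above the floor. AT1G70270 had 3.31 and 3.25, against 5.80 and 6.11 in the mutant and 3.11 and 3.08 in wild type, and AT3G15650 had 3.65 and 3.74, against 5.77 and 6.22 in the mutant and a mean near 4 in wild type, with overexpressor and wild type both low. The falls of these 6 genes ran from 2.01 to 3.26 log2 units, and with AT1G29090 (5.38 and 4.83 against 8.15 and 7.84), CP1 and GSTU20 they passed with each array left out. The other 6 did not. Leaving out mutant array 2 gave an adjusted p of 0.067 for AT2G27420, 0.0795 for AT4G08780, 0.111 for AT1G69160, 0.129 for AT1G13650, 0.077 for AT5G54130 and 0.0803 for AT2G48080. Without mutant array 1 it was 0.0522 for AT4G08780, 0.089 for AT1G69160, 0.129 for AT1G13650 and 0.0585 for AT2G48080. Without overexpressor array 2 it was 0.0517 for AT2G27420, 0.0804 for AT1G69160 and 0.0834 for AT1G13650, which also lost its call without overexpressor array 1 (0.0835) and without a filter (0.0727), as AT1G69160 did without a filter (0.05). The second probe set of AT5G54130 fell too, by 1.49 (SE 0.267, limma adjusted p = 0.0127).

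Among probe sets that the platform table does not list under a gene, the changes were as large. The largest rise had 9.84 and 9.93 in the overexpressor, against 2.94 and 3.04 in the mutant and 3.11 and 3.03 in wild type, which is 6.89 log2 units (SE 0.141, limma adjusted p = 5.04e-06). The largest fall had 4.63 and 4.74, against 8.31 and 9.14 in the mutant and 4.36 and 5.11 in wild type, a change of -4.04 (SE 0.326, limma adjusted p = 0.000927). In the first the overexpressor stands alone, and in the second the mutant does. Of the 1088 rises 526 (48.3%) were on probe sets not listed under a gene, and of the 1181 falls 534 (45.2%), close to the 5560 of 12363 tested probe sets (45.0%) that are not listed.

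Autophagy genes and plastid-encoded genes gave 1 call in all. Of 11 tested autophagy probe sets 1 rose, which at 9.09% is near the 8.80% of all tested probe sets. It was ATG8H, a gene of the ubiquitin-like coat protein of autophagosomes, by 0.58 (SE 0.118, limma adjusted p = 0.0189) with 7.53 and 7.55 in the overexpressor against 6.97 and 6.94 in the mutant. The median was 0.28 with 9 members above 0, and APG8H, ATG8D and APG8A differed by 0.48, 0.63 and 0.68 (adjusted p = 0.0552, 0.0693 and 0.0731). ATG8H lost its call without mutant array 1 (limma adjusted p = 0.097), mutant array 2 (0.114) or overexpressor array 2 (0.0677). None of the 65 tested plastid-encoded probe sets passed limma's test, against 18.4% of all tested probe sets, though 10 had an unadjusted p below 0.05. Of the 65, 57 lay below 0 with a median of -0.23, against 6547 of all 12363 and a median of -0.03. petG, of the cytochrome complex between the photosystems, had 6.91 and 6.42 in the overexpressor, against 7.09 and 7.44 in the mutant and 8.45 and 8.29 in wild type, a difference of -0.60 (adjusted p = 0.0788). psbH, of photosystem II, had 10.29 and 9.91, against 10.60 and 10.54, and differed by -0.47 (adjusted p = 0.0719). The ribosomal protein genes rps3 and rps16 differed by -0.41 and -0.63 (adjusted p = 0.082 and 0.0837).

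**Figure D4:**
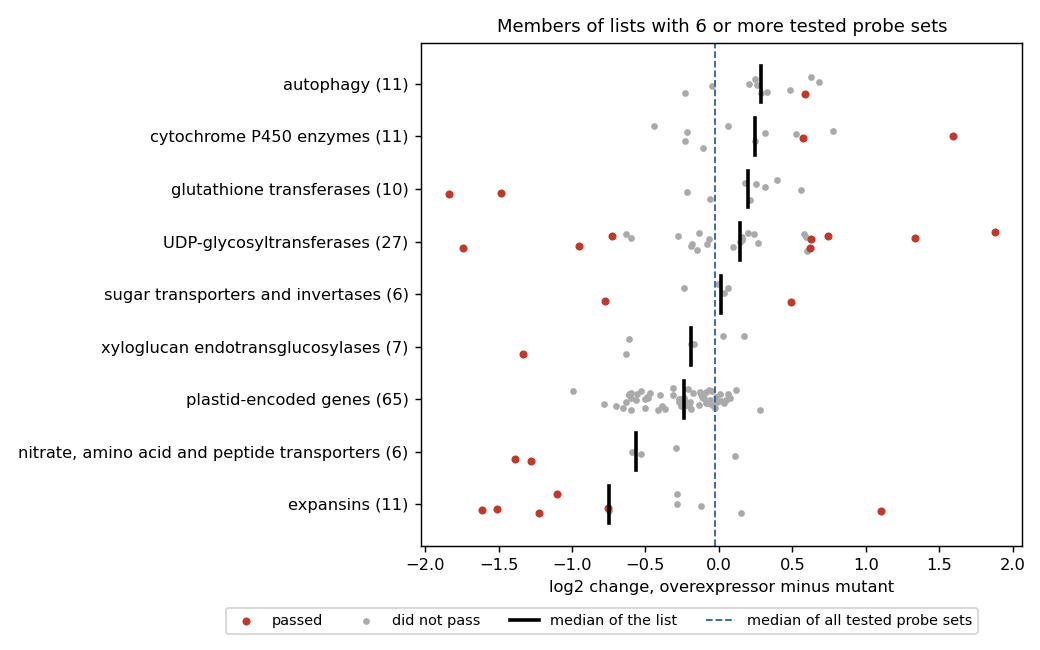
Changes (log2, overexpressor minus mutant) of the tested members of the 9 gene lists with 6 or more tested probe sets, with the number tested in brackets; red points passed, grey points did not, and black bars are medians. The median of the expansins lies at -0.75 and that of the autophagy genes at 0.28, against -0.03 for all tested probe sets (dashed line).

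The vascular tissue that OPS acts in could hardly be read by name. Of the 17 genes of the phloem list, OPS and SWEET11 had a named probe set, and of 4 tested genes of procambium and xylem none passed limma's test (1 at an unadjusted p below 0.05; range -0.49 to 0.59). The vascular regulators PHV, LHW and CLE41 differed by -0.49, -0.16 and -0.12 (adjusted p = 0.0992, 0.477 and 0.717). GUT2, of xylan synthesis and the 1 xylem marker of 6 with a named probe set, had 4.52 and 4.54 in the overexpressor against 3.33 and 4.54 in the mutant and differed by 0.59 (adjusted p = 0.285). PYK10, RCA and PSAN, markers of root and green shoot, were high in all 4 arrays. The root marker PYK10 had 12.10 and 11.93 in the overexpressor, against 12.33 and 12.45 in the mutant, and fell by 0.37 (SE 0.0973, limma adjusted p = 0.0395), a call lost without mutant array 1 (0.119), mutant array 2 (0.221) or overexpressor array 2 (0.144), without a filter (0.12), with added quantile normalization and without a mean-variance trend. The root hair expansins EXPA7 and EXPA18 differed by -0.12 and 0.15. The green shoot markers RCA and PSAN stood at 13.67 and 13.65 and at 12.70 and 12.45 in the overexpressor, against 13.83 and 13.86 and 12.66 and 12.78 in the mutant. The guard cell lineage marker FMA had 4.25 and 3.91 against 3.89 and 4.27. Of the 6 root markers 1 of 3 tested passed, and of the 6 green shoot markers LHCB4.2 was the 1 of 3 that did. Over all tested probe sets 18.4% passed, and the part of organ proportions in the results was not tested.

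Changes were spread over the genome and more frequent at high levels. Of the tested probe sets that name a gene, 17.4% passed on chromosome 1, 17.6% on chromosome 2, 18.1% on chromosome 3, 19.6% on chromosome 4 and 17.1% on chromosome 5. On chromosome 3 there were 96 rises and 146 falls, and on chromosome 1 there were 149 and 143. By mean level, 10.9% passed up to a value of 5, 15.6% between 5 and 7, 22.7% between 7 and 9, 31.6% between 9 and 11 and 30.8% above 11. In the highest of these classes 25 of the 116 that passed were rises. Of 14 genes with several tested probe sets and a call on at least 1, all probe sets had the same sign in 11 and passed in 4.

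The number of changes rested on single arrays of either line. Without mutant array 1 there were 503 calls (312 higher and 191 lower) and without mutant array 2 there were 363 (256 and 107). Leaving out overexpressor array 2 gave 1095 (601 and 494), and leaving out overexpressor array 1 gave 1931, with 758 higher and 1173 lower. The lower counts come from fits that leave 1 array in a group. Among the named genes, 15 of the 15 largest rises kept their calls without each array, as did 9 of the 15 largest falls. With genes that have a symbol, it was 11 of the 15 largest rises and 4 of the 15 largest falls, the 4 being CP1, GSTU20, ASPGB1 and APS3.

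**Figure D5:**
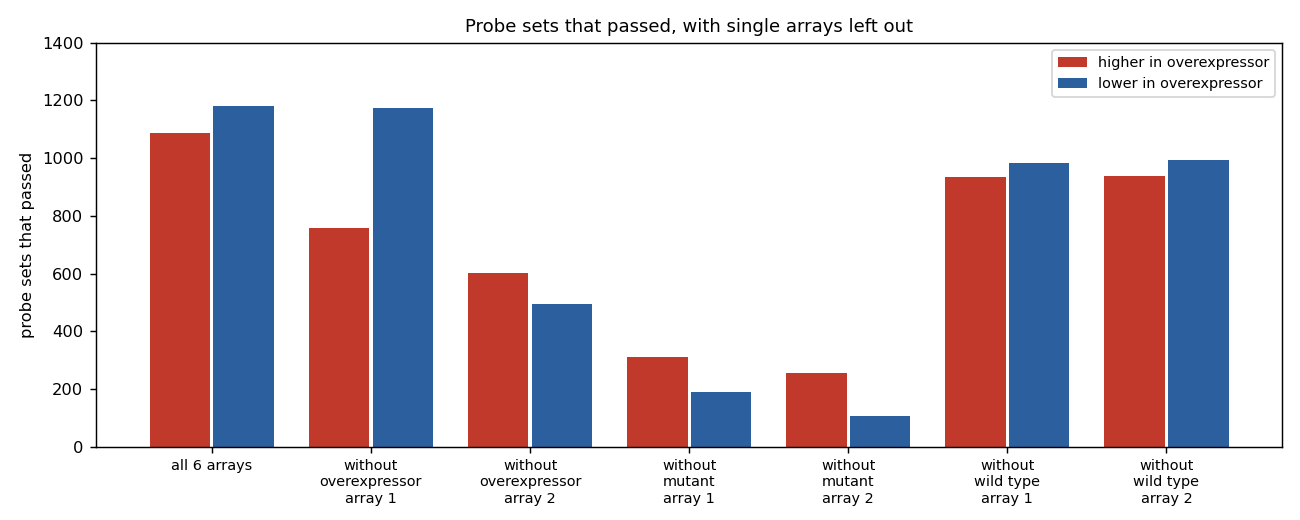
Number of probe sets that passed (vertical axis), higher in the overexpressor in red and lower in blue, with all 6 arrays and with each array left out. All 6 arrays give 1088 and 1181, and without mutant array 2 the counts are 256 and 107.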

How the data were processed

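The deposited values are log2 expression values, 1 per probe set and array, which the authors made with GCRMA per the submitters' processing notes, with no version named. GCRMA corrects background from the base content of the probes, normalises between arrays and gives 1 summary per probe set. That they are log2 was judged from their range.

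Of 22810 probe sets, 13513 name 1 gene in the platform table, 503 name several and 8794 are not listed. Of the first, 13436 were matched to the TAIR10.1 annotation and 77 kept the table's name. No source names the array's build, so no coordinates are printed, and promoter and protein sequences were not used here.

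The log2 values as deposited were tested two-sided in R 4.3.3 with limma 3.58.1, by lmFit and by eBayes with its trend option. All 6 arrays entered 1 fit, so that the 3 groups shared an estimate of the spread (3 residual and 3.98 prior degrees of freedom), and the contrast was overexpressor minus mutant. After removal of 64 controls, testing was limited to the 12363 probe sets whose 6 values averaged 4 or more. To pass, the Benjamini-Hochberg adjusted p over these had to be below 0.05. Errors are standard errors of the fit, and the number of arrays limits the precision. The fit was tested on simulated data.

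The contrast, the lists and the members were chosen with earlier results of these data known. Named genes are OPS, the 15 largest rises and 15 largest falls that passed, name 1 gene and do not overlap between the lines, and up to 4 list members of smallest p. The 15 largest rises and falls among genes with a symbol were added after the data were examined. Lists formed by pattern match symbols and descriptive synonyms. They therefore miss genes with a locus number only, and lists of lipid transfer proteins, MYB factors, receptor-like kinases, heat shock proteins and ribosomal proteins had no member. Alternatives were other filters and normalizations, no trend, 4 arrays, a replicate block and each array left out.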

Additional observations from a re-analysis of the deposited data

Results flagged for a closer look

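Control probe sets were not part of the comparison, and 2 of the 64 stood at least 1 log2 unit higher in both mutant arrays than in both wild-type arrays. The control for 25S ribosomal RNA had 8.03 and 11.2 in the mutant, 3.47 above wild type on average, and 6.28 and 6.61 in the overexpressor. The control probe set AFFX-r2-At-U12639_at, for which the sources used here give no gene, had 4.81 and 4.84 in the mutant, 2.86 above wild type at the floor with 1.97 and 1.97, and 1.97 and 2.00 in the overexpressor.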

How the results depend on the processing

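OPS passed under each of the 15 alternatives run, and its change lay between 7.02 and 7.33 with single arrays left out (highest limma adjusted p = 0.00116). With single arrays left out the count of changed probe sets ran from 363 to 1931 against 2269 with all arrays, the rises from 256 to 938, the falls from 107 to 1173 and the changes of at least 2-fold from 307 to 798. Rises made up 48.0% of the calls with all arrays, 39.3% without overexpressor array 1, 54.9% without overexpressor array 2, 62.0% without mutant array 1 and 70.5% without mutant array 2. These fits leave 1 array in a group, which is then assumed to vary like the others. Without a filter 735 probe sets fell, and with a mean of at least 6 there were 370 changes of at least 2-fold. The count was 1926 with 4 arrays, 1531 without a filter, 2029 without a trend, 2379 with quantile normalization and 2388 with centred arrays. SWEET1, which did not pass, changed sign without overexpressor array 2 (-0.13) and mutant array 2 (-0.02) and lay between -0.13 and 0.25 over the arrays left out. Of 78 named genes that passed, 39 kept their calls without each array, and 31, 38, 11 and 19 lost them without mutant array 1, mutant array 2, overexpressor array 1 and overexpressor array 2. Each of these fits also has fewer residual degrees of freedom.

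The labels number the replicates of each line, but deviations of same-numbered overexpressor and mutant arrays from their group means correlated at -0.305, so the numbers are not taken to pair the samples. With the replicate number as a block 1579 probe sets passed, 776 higher and 803 lower, and 71 of the 78 named genes kept their calls. The other 7 were LTI30 (limma adjusted p = 0.0693), PMEPCRF (0.0683), PR-1-LIKE and AT2G31790 (0.0737 each), AT3G21670 (0.0549), CHIL (0.0511) and PYK10 (0.0692). With the mutant numbers exchanged, an alternative added after the data were examined, the block gave 2972 calls, 1412 higher and 1560 lower.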

Other observations

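Some transcripts with a mean under the filter stood clear of the floor in 1 line only. Of 10383 probe sets left out by the filter, 210 passed limma's test when no filter was set, 125 higher and 85 lower in the overexpressor, and 15 of them are of genes with a symbol. These were picked by that rule after the data were examined.

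On the higher side, CHI, annotated as a putative chitinase, an enzyme against fungal walls, had 6.24 and 6.22 in the overexpressor, against 2.98 and 3.03 in the mutant and 2.43 and 2.79 in wild type, a rise of 3.22 (SE 0.186, limma adjusted p = 0.00177). GRX480, a glutaredoxin of salicylic acid responses, had 4.44 and 4.41, against 2.45 and 2.88 in the mutant and 2.77 and 2.74 in wild type, and rose by 1.76 (limma adjusted p = 0.00581). In both genes the overexpressor stands alone. The calmodulin-like genes CML41 and CML43 rose by 1.70 and 1.04, and the P450 genes CYP718 and CYP71B36 by 1.91 and 1.43. Above the filter, none of the 5 tested genes of the calmodulin and EF-hand list passed limma's test (1 at an unadjusted p below 0.05; range -0.595 to 0.065). That list can miss members with a locus number only, so it does not speak for all such genes.

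On the lower side, SWEET13, a sucrose exporter of the same clade as SWEET11, had 2.73 and 2.59 in the overexpressor, against 5.12 and 5.69 in the mutant and 2.99 and 2.82 in wild type, and fell by 2.74 (SE 0.224, limma adjusted p = 0.00441). SWEET11 moved the other way, with 10.22 and 10.38 in the overexpressor against 9.67 and 9.95 in the mutant. DFR, dihydroflavonol reductase of anthocyanin synthesis, had 2.13 and 2.29, against 3.71 and 4.37 in the mutant, and fell by 1.83 (limma adjusted p = 0.0102), and UF3GT, a glycosyltransferase gene of anthocyanins, fell by 0.59 (limma adjusted p = 0.0175). YUC2, an enzyme of auxin synthesis, had 2.98 and 3.21, against 4.10 and 4.62, and fell by 1.26 (limma adjusted p = 0.037). The overexpressor values of these 4 genes lie at or near the floor. CIL, LEP, ALC and TRM22 fell by 1.56, 1.40, 0.46 and 0.88. The other probe set with the symbol PWD, matched by symbol alone, fell by 1.06 (limma adjusted p = 0.0234).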
